A study of Mus musculus with 12 samples.

Results

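The mitochondrial ribosomal protein genes are the nuclear genes, named Mrpl for the large subunit and Mrps for the small one, that encode the protein part of the ribosome inside mitochondria. A gene was taken as a member where its single symbol in the array's annotation began with Mrpl or Mrps and a number. This gave 71 members, 43 Mrpl and 28 Mrps, of 22180 genes. Where a gene had more than 1 probe set, as 9 members did, the one with the higher average signal stood for it. A further 7 symbols (Mrpl30, Mrpl33, Mrpl41, Mrpl43, Mrpl44, Mrpl53 and Mrps6) occurred only on probe sets that also name another gene, so they are not members.

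The cells were primary aortic smooth muscle cells of C57BL/6J mice at passage 3 to 4. They were grown in DMEM with 10% fetal calf serum and glucose at 0.3 g/l (1.7 mM), the low level, or 4.5 g/l (25 mM), the high level, with 6 arrays per glucose level and replicates numbered 1 to 6 in each. The series text gives a culture time of 14 days and the sample labels give 1 week. The labels do not say whether replicates came from separate animals or cultures, so p-values reflect how these arrays vary and may cover technical spread only.

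Values are log2 expression on 1 array per sample, from 0.60 to 13.90 over the table, and 6 arrays per group limit the precision. All 71 members lay above 4.20, the bound of the dimmest 25% of genes, with means over the 12 arrays from 4.38 (Mrps36) to 10.32 (Mrpl52). Smooth muscle markers were well expressed, Acta2 (smooth muscle actin) at 13.15 ± 0.24 in 0.3 g/l and 13.83 ± 0.06 in 4.5 g/l (SD, n = 6). Group means of the 12 endothelial markers ran from 4.84 (Robo4) to 11.71 (Emcn), with Emcn, Cdh5 and Pecam1 at 9.49 or above in both groups and the other 9 at 7.15 or below. Those of the 10 leukocyte markers ran from 3.29 (Ptprc) to 7.33 (Cd68). Values of different probe sets are not comparable as levels. On the first principal component of all genes 0.3 g/l replicate 4 lay at 17.2, among the 4.5 g/l arrays (12.5 to 26.2) and away from the rest of its group (-30.2 to -24.4). For the members and the gene lists, counts of calls in the main test are given with and without it where they change.

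Mitochondria keep a small genome whose protein products are core subunits of the respiratory chain and ATP synthase, and only mitochondrial ribosomes can make them. Those ribosomes combine RNA read from mitochondrial DNA with proteins made in the cytosol and imported. Many of these proteins have bacterial counterparts, and others are specific to mitochondria. Cultured smooth muscle cells draw energy from both glycolysis and respiration.

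Most mitochondrial ribosomal protein mRNAs had lower values in 4.5 g/l glucose than in 0.3 g/l, by small amounts. The limma test, with Benjamini-Hochberg adjustment over all 22180 genes at 0.05, called 22 of 71 members lower (31.0%) and 1 higher, Mrpl49 (1.41%). Over all genes it called 8.52% lower, 7.01% higher and 15.5% in either direction. Among the genes above the dimmest 25%, where all members lie, 11% were called lower. The difference was negative in 64 of 71 members and in 51.8% of all genes. The median log2 difference of the members was -0.17 (quartiles -0.28 and -0.09), against -0.01 over all genes. In bulk RNA, fewer cells of a type and less of an RNA per cell cannot be told apart.

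The 22 falls ran from 0.16 to 0.66 on the log2 scale, or 1.11-fold to 1.58-fold, with a median of 1.26-fold. Only Mrpl38 and Mrps18b of them reached 1.5-fold, and in a test against a fold of 1.2 the same pair was called, against 0.852% of all genes called lower by that test. The standard error of a member's difference was 0.05 to 0.16 (median 0.07). An unadjusted p under 0.05 was found for 43 members, but the share of all genes under that bound was not computed to set beside it. Of the 48 members that did not pass, 17 had a 95% interval within 1.2-fold of no difference.

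**Figure D1:**
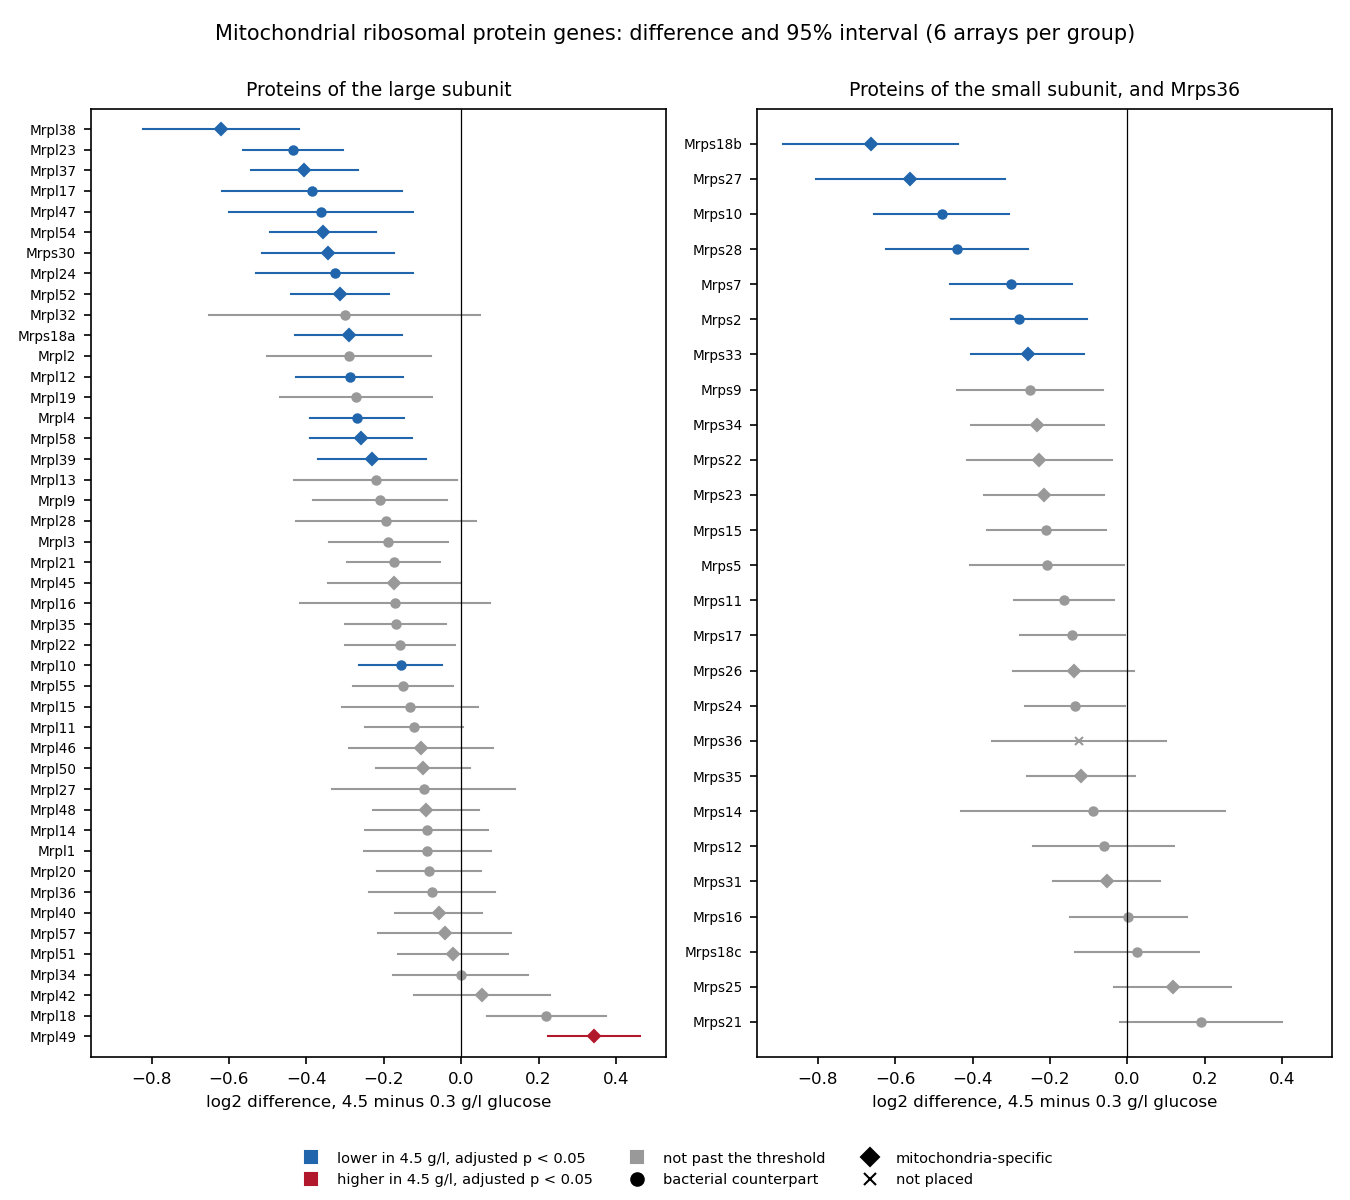
Log2 difference (4.5 minus 0.3 g/l glucose, x axis) and its 95% interval for each of the 71 members, proteins of the large subunit on the left and of the small subunit, with Mrps36, on the right. Blue points are the 22 members called lower, the red point is Mrpl49, grey points did not pass, and diamonds mark mitochondria-specific proteins; 64 points lie left of 0.

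Groups of arrays separated fully for 13 members with lower values in 4.5 g/l, 12 of them called, and for 1 with higher values, where 2.9% and 3.49% of all genes separated in those directions. The other 10 called members overlapped, and 7 of these no longer did without 0.3 g/l replicate 4. That array was the lowest of its group for 17 of the 22 members (77.3%) and for 1524 of all genes called lower (80.7%).

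The mean of all 71 members was 7.66, 7.58, 7.62, 7.48, 7.68 and 7.64 in 0.3 g/l replicates 1 to 6 and 7.41, 7.41, 7.42, 7.45, 7.39 and 7.47 in 4.5 g/l replicates 1 to 6. The groups did not overlap. The lowest 0.3 g/l array, replicate 4, lay just above the highest 4.5 g/l array. Without replicate 4, 36 members were called lower and 3 higher, with all 22 among the 36, where 13.6% of all genes were called lower.

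Endothelial and smooth muscle markers also differed between arrays. The mean of 12 endothelial markers was 7.38 to 7.45 in 0.3 g/l without replicate 4 and 6.91 in replicate 4. In 4.5 g/l it was 7.33 to 7.47 on arrays 1 to 3 and 6.64 to 6.71 on arrays 4 to 6. All 12 markers had negative differences, with a median of -0.26. Of them 1, Emcn, was called lower, and 3 (Emcn, Cdh5 and Tek) were without 0.3 g/l replicate 4. Over all genes 8.52% and 13.6% were lower in these fits. The member means did not follow the split of the 4.5 g/l arrays: they were 7.41 to 7.42 on arrays 1 to 3 and 7.39 to 7.47 on arrays 4 to 6. Within replicates 1 to 3, 16 members were called lower and 1 higher, 11 of the 22 among them, against 7.16% of all genes called lower. The ranges of endothelial means overlap in these replicates. Of the 12 endothelial markers only 1, Tek, was called there, as lower (-0.45, limma adjusted p = 0.0251). Emcn, Cdh5 and Nos3 also had negative differences there, and the rest had positive ones. Smooth muscle markers still differed: 8 of 10 were called higher, where 1313 of all 22180 genes were. The mean of 10 smooth muscle markers was 8.74 to 8.91 in 0.3 g/l without replicate 4, 10.00 in replicate 4 and 10.51 to 10.77 in 4.5 g/l. Of these markers 8 of 10 were called higher, and 9 without 0.3 g/l replicate 4. Over all 22180 genes 1555 (7.01%) were called higher, and 2288 without that array. Leukocyte marker means were 4.77 to 4.99 and those of fibroblast and adventitial markers 4.94 to 5.27 over all arrays. In these lists 0 of 10 and 1 of 7 (higher) were called, and 0 and 2 (higher) without 0.3 g/l replicate 4. The part of cell makeup in the members' difference was not tested.

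**Figure D2:**
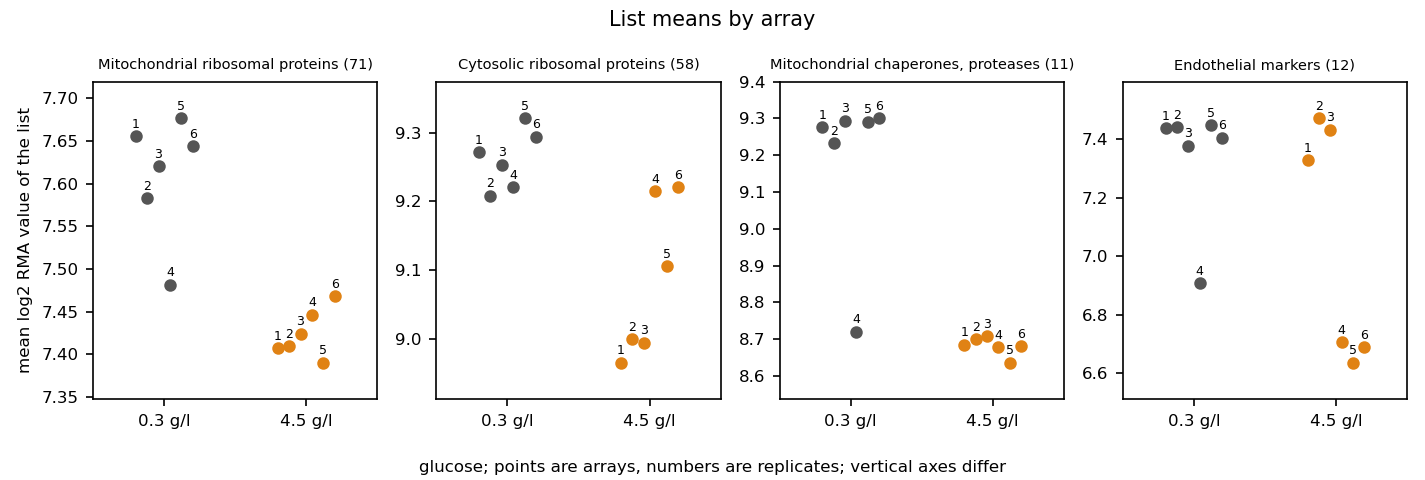
Mean log2 value (y axis, a different range in each panel) of 4 gene lists on each array, by glucose, with replicate numbers on the points. The member mean of every 4.5 g/l array (7.39 to 7.47) lies below that of every 0.3 g/l array, replicate 4 (7.48) being the nearest, while the endothelial mean splits the 4.5 g/l arrays into 1 to 3 and 4 to 6.

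Upstream sequences of some members called lower are shown because they hold motifs that a larger share of members than of all genes carries near the start. The sequences are RefSeq's on mouse build GRCm38.p6, and 62 of the 71 members had a start region in that table. Each window below is the 150 bases before the start on the gene's own strand, and capitals mark a motif. The ETS motif CCGGAAG, bound by factors such as GABP, is marked for Mrpl52 (chr14:54426759-54426908, plus strand) and Mrps18a (chr17:46110854-46111003, plus strand), in Mrpl52 as its reverse complement. The motif of NRF1, a factor known for genes of respiration, is marked for Mrpl12 (chr11:120484487-120484636, plus strand) and Mrpl39 (chr16:84735245-84735394, minus strand). Mrpl49 (chr19:6057756-6057905, minus strand), the member called higher, holds neither, and neither does Mrpl23 (chr7:142532882-142533031, plus strand), the called member with the smallest p.
Mrpl52: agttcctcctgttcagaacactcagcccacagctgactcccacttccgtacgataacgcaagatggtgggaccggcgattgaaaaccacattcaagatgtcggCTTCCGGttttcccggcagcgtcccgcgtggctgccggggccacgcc
Mrps18a: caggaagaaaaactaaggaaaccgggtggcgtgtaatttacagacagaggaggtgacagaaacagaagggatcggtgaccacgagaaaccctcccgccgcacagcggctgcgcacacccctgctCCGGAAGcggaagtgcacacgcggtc
Mrpl12: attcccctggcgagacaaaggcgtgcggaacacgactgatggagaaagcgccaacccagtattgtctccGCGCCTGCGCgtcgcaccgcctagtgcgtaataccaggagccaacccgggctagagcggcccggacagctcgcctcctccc
Mrpl39: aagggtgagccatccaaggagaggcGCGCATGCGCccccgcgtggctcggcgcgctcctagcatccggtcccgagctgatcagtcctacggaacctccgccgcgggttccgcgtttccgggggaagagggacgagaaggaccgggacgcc
Mrpl23: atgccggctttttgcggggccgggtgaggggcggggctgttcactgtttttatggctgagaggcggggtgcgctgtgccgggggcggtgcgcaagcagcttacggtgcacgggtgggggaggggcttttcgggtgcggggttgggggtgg
Mrpl49: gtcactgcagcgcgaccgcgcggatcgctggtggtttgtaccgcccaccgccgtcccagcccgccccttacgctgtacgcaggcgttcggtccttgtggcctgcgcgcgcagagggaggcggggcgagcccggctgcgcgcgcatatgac

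Motifs were searched on both strands from 250 bases before to 50 after the start. CCGGAAG occurred in 37.1% of the 62 members and in 9.93% of 27025 genes. The NRF1 motif, searched as GCGC and GCGC with any 2 bases between, occurred in 19.4% of members and 7.00% of genes. AANATGGCG, the motif of YY1, occurred in 17.7% and 2.76%. At least 1 of these 3 was present in 38 members (61.3%), against 17.3% of genes. CACGTG, the E-box that Myc binds, occurred in 8.06% and 8.09%, and TGATGNAA, the amino acid response element of ATF4, in 0 of 62 members and 4.51% of genes. A match describes letters only, not binding.

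Called and other members were set side by side for the same motifs. CCGGAAG stood in 38.9% of the 18 members called lower and 37.2% of the 43 that did not pass, the NRF1 motif in 16.7% and 20.9%, and the YY1 motif in 27.8% and 14.0%. None of the 3 stood in 7 of the 18. No test was made of these shares.

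Large subunit proteins around the peptide exit tunnel, through which the new chain leaves, were among the members with lower values. Mrpl23 had the smallest p of all members: it lay at 7.71, 7.89 and 7.96 (lowest, median and highest) in 0.3 g/l and at 7.37, 7.43 and 7.55 in 4.5 g/l. The groups were apart, and the log2 difference was -0.43 ± 0.06 (SE; limma adjusted p = 0.000449). Mrpl24, its neighbour at the exit, lay at 8.96, 9.48 and 9.54 and at 8.94, 9.10 and 9.22, a difference of -0.33 ± 0.09 (SE; limma adjusted p = 0.0313). Its groups overlapped only through 0.3 g/l replicate 4, the 8.96, and without that array the difference was -0.42.

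Mrpl4, whose bacterial counterpart lines the tunnel, fell by 0.27 on the log2 scale, and its groups were apart. Mrpl17 fell by 0.39 and Mrpl47, the counterpart of bacterial L29, by 0.36, both with overlapping groups. Mrpl45, which anchors the ribosome to the inner membrane at the exit, differed by -0.17 ± 0.08 (SE) and did not pass (limma adjusted p = 0.176). Leaving out 0.3 g/l replicate 4 gave -0.23, which passed (limma adjusted p = 0.0192).

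Mrpl12, Mrpl10 and Mrpl11 belong to the stalk and its base, which recruit elongation factors. Mrpl12, the stalk protein also reported to bind mitochondrial RNA polymerase, lay at 7.22, 7.37 and 7.53 in 0.3 g/l and at 6.97, 7.08 and 7.16 in 4.5 g/l. Its groups were apart, with a difference of -0.29 ± 0.06 (SE; limma adjusted p = 0.00822), although a second, dimmer probe set differed by -0.12 and did not pass. Mrpl10, at the base of the stalk, had the smallest fall of the 22 called members, 0.16. Its adjusted p in limma, 0.0488, became 0.0523 when every probe set was tested on its own, and it passed in 1 of the 12 fits that left out an array. A second, dimmer probe set of Mrpl10 differed by -0.04 and did not pass. Mrpl11, also at the base, differed by -0.12 ± 0.06 (SE) and did not pass (limma adjusted p = 0.198).

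Mitochondria-specific proteins of the large subunit included the largest fall in that subunit. Mrpl38, a protein of the central protuberance, lay at 8.33, 8.70 and 8.71 in 0.3 g/l and at 7.68, 8.06 and 8.20 in 4.5 g/l. Its groups were apart, 0.3 g/l replicate 4 (8.33) being the nearest to the other group, and the difference was -0.62 ± 0.09 (SE; limma adjusted p = 0.000787). Mrpl37 lay at 8.16, 8.35 and 8.48 and at 7.89, 7.94 and 8.01, with a difference of -0.40 ± 0.06 (SE; limma adjusted p = 0.00107). Its groups were apart too.

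Mrps30, named for the small subunit but placed in the large one and related to Mrpl37, fell by 0.34 on the log2 scale. Mrpl54 lay at 9.51, 9.66 and 9.76 and at 9.19, 9.29 and 9.43, a difference of -0.36 ± 0.06 (SE; limma adjusted p = 0.00209), with groups apart. Mrpl52 lay at 10.39, 10.45 and 10.62 and at 10.04, 10.19 and 10.22, a difference of -0.31 ± 0.06 (SE; limma adjusted p = 0.00302). It was highest in 0.3 g/l replicate 4, the reverse of that array's place in most called members.

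Mrpl58, a peptidyl-tRNA hydrolase that frees stalled chains and is built into the ribosome, fell by 0.26, with groups apart (limma adjusted p = 0.0109). Mrpl39, which resembles threonyl-tRNA synthetases, fell by 0.23 (limma adjusted p = 0.0278).

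Mrpl49 ran the other way. It lay at 7.86, 7.98 and 7.99 in 0.3 g/l and at 8.22, 8.28 and 8.43 in 4.5 g/l, so that every 4.5 g/l array was above every 0.3 g/l array. The difference was 0.34 ± 0.06 (SE; limma adjusted p = 0.00115), or 1.27-fold, and 0.35 without 0.3 g/l replicate 4. Fau, a ribosomal protein fusion gene whose start lies 192 bases away on the opposite strand, fell by 0.17 (limma adjusted p = 0.0384). Mrpl18, the counterpart of a bacterial protein that binds 5S ribosomal RNA, differed by 0.22 ± 0.07 (SE) and missed the threshold (limma adjusted p = 0.0533). Leaving out 0.3 g/l replicate 4 gave 0.25 (limma adjusted p = 0.0186).

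**Figure D3:**
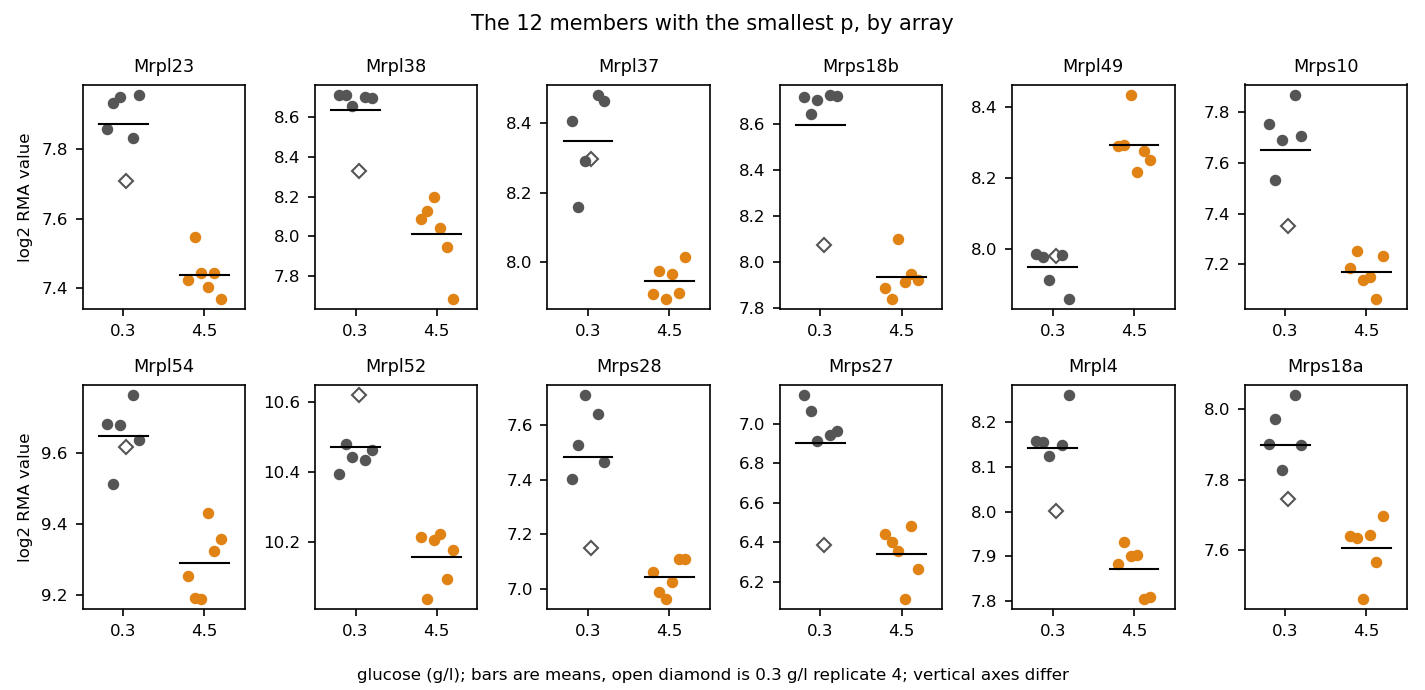
Log2 value (y axis, a different range in each panel) on each array for the 12 members with the smallest p, by glucose in g/l, with bars at group means and an open diamond for 0.3 g/l replicate 4. Mrpl49 alone is higher in 4.5 g/l; the diamond lies near or within the 4.5 g/l points for Mrps18b and Mrps27.

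In the small subunit the largest fall was that of Mrps18b, 1 of 3 relatives of bacterial S18 that sit at different places of the ribosome. Mrps18b lay at 8.07, 8.71 and 8.73 in 0.3 g/l and at 7.84, 7.92 and 8.10 in 4.5 g/l. Only 0.3 g/l replicate 4, the 8.07, overlapped with the other group. The difference was -0.66 ± 0.11 (SE; limma adjusted p = 0.00107), and -0.77 without that array. A second probe set named Mrps18b differed by -0.90 ± 0.12 (SE; limma adjusted p = 0.000323 with every probe set tested). Whether that probe set measures the gene or a copy elsewhere was not checked.

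The relatives of Mrps18b differed less. Mrps18a, which sits in the large subunit, fell from 7.90 to 7.61 in mean log2 value (difference -0.29 ± 0.06, SE; limma adjusted p = 0.00779), and its groups were apart. Mrps18c, which holds the place of the bacterial protein, differed by 0.02 ± 0.07 (SE; limma adjusted p = 0.890), with a 95% interval from -0.14 to 0.18. A second, dimmer probe set of Mrps18c differed by -0.18 ± 0.11 (SE) and did not pass (limma adjusted p = 0.329 with every probe set tested). Differences between the relatives were not tested.

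Proteins of the head of the small subunit included Mrps10 and Mrps7. Mrps10 lay at 7.35, 7.70 and 7.87 in 0.3 g/l and at 7.06, 7.17 and 7.25 in 4.5 g/l. The groups were apart and the difference was -0.48 ± 0.08 (SE; limma adjusted p = 0.00152). Mrps7 fell by 0.30, with 1 high array in 4.5 g/l, replicate 3 at 8.29, inside the range of the other group (8.15 to 8.45).

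Mrps28, the counterpart of bacterial S1, lay at 7.15, 7.50 and 7.71 and at 6.96, 7.04 and 7.11, a difference of -0.44 ± 0.09 (SE; limma adjusted p = 0.00346) with groups apart. Mrps27, a pentatricopeptide repeat protein, lay at 6.39, 6.95 and 7.15 and at 6.11, 6.38 and 6.48, a difference of -0.56 ± 0.11 (SE; limma adjusted p = 0.00457). Its groups overlapped through 0.3 g/l replicate 4 alone, the other 5 arrays of that group lying at 6.92 or above, and without that array the difference was -0.66. Its divergent neighbour Ptcd2, which starts 108 bases away, also fell (-0.36, limma adjusted p = 0.0280).

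Mrps2 and Mrps33 fell by 0.28 and 0.26 on the log2 scale, with overlapping groups. Mrps12, the counterpart of the bacterial protein at the decoding centre, differed by -0.06 ± 0.08 (SE; limma adjusted p = 0.717). Dap3, a GTP-binding protein of the small subunit outside the naming rule, differed by 0.01 ± 0.07 (SE; limma adjusted p = 0.942). Of the remaining mitoribosomal proteins with other symbols, Gadd45gip1 and Ptcd3 differed by -0.20 and -0.16 and did not pass.

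Among the members that did not pass, the largest negative differences were those of Mrpl32 (-0.30 ± 0.16), Mrpl2 (-0.29 ± 0.10) and Mrpl19 (-0.27 ± 0.09, all SE). All 3 passed without 0.3 g/l replicate 4. Mrpl18, Mrps21 (0.19 ± 0.10) and Mrps25 (0.12 ± 0.07, both SE) had the largest positive ones. Mrps21 passed as higher without that array (limma adjusted p = 0.0253). Mrps36, now assigned to the 2-oxoglutarate dehydrogenase complex rather than the ribosome, differed by -0.12 ± 0.10 (SE; limma adjusted p = 0.509).

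Each structural class held members called lower, where 8.52% of all genes were. Of large subunit proteins with a bacterial counterpart 7 of 28 were lower, and of those specific to mitochondria 8 of 17 were lower and 1 higher. Without 0.3 g/l replicate 4 these counts were 15 of 28 (and 1 higher) and 9 of 17 (and 1 higher), where 13.6% of all genes were lower. In the small subunit 4 of 15 with a counterpart and 3 of 10 specific ones were lower, and 6 of 15 (and 1 higher) and 6 of 10 without that array. The median log2 differences of these classes were -0.17, -0.17, -0.16 and -0.22. Mrpl and Mrps genes were called lower in 13 of 43 (and 1 higher) and 9 of 28. Without 0.3 g/l replicate 4 these counts were 22 of 43 (and 2 higher) and 14 of 28 (and 1 higher). Differences between classes were not tested.

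Some probe sets name a member-type gene together with another gene, so their values belong to neither alone. The one for Mrps6 and Slc5a3, a myo-inositol transporter, had a mean of 9.06 in 0.3 g/l and 9.60 in 4.5 g/l, with 9.57 in 0.3 g/l replicate 4. The one for Mrpl30 and Gm6238 differed by -0.29 and that for Mrpl43 and Twnk by -0.20. These were the largest falls among 13 such probe sets, whose differences ran in both directions, from -0.29 to 0.54.

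Starts of neighbouring genes on the opposite strand lay within 1000 bases for 23 of the 62 members (37.1%), against 12.2% of all genes in the RefSeq table. All 23 neighbours were measured, and 8.52% of all genes were called lower and 7.01% higher. Of the neighbours 2 were lower (Fau and Ptcd2) and 2 higher (Ska3 beside Mrpl57, 0.49, and Ncapd2 beside Mrpl51, 0.47), both beside members that did not pass. Mrps11 and Mrpl46, which start 42 bases apart, differed by -0.16 and -0.10, and neither passed.

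Genes that assemble the mitochondrial ribosome were lower in 10 of 27 and higher in 0, with a median log2 difference of -0.22. For this and the lists below, the share of all genes called lower was 8.52%, and 13.6% without 0.3 g/l replicate 4. Without that array 14 of the 27 were lower. C1qbp, a matrix protein needed for mitochondrial translation, fell from 9.76 ± 0.23 to 9.09 ± 0.06 (SD, n = 6; difference -0.67 ± 0.10, SE; limma adjusted p = 0.000535). Tfb1m, which methylates the small ribosomal RNA, fell by 0.56, Nsun4, another ribosomal RNA methyltransferase, by 0.62, and Mpv17l2, which binds the large subunit, by 0.48. The list's array means were 7.16 to 7.26 in 0.3 g/l without replicate 4, 6.89 in replicate 4 and 6.89 to 6.94 in 4.5 g/l.

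Translation factors were lower in 2 of 13, with a median of -0.08, and in 4 of 13 without 0.3 g/l replicate 4. The elongation factors Tufm and Tsfm fell by 0.20 and 0.26 (limma adjusted p = 0.0331 and 0.0498). Both were near the threshold: each passed in 3 of the 12 fits that left out an array, and neither passed within replicates 1 to 3. Tsfm did not pass without 0.3 g/l replicate 4 (limma adjusted p = 0.0575).

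Of genes that maintain and read mitochondrial DNA and process its RNA, 7 of 20 were lower, with a median of -0.17, and 9 without 0.3 g/l replicate 4. The helicase Twnk fell by 0.52, Lrpprc, which stabilises mitochondrial mRNA, by 0.58 (0.74 on the log2 scale without 0.3 g/l replicate 4). The transcription factor Tfb2m and Trmt10c, a subunit of mitochondrial ribonuclease P, differed by -0.42 and -0.28, and each passed in the fit with all arrays but in only 3 of the 12 fits that left out an array. Tfam, which packages mitochondrial DNA, differed by -0.21 ± 0.09 and the RNA polymerase Polrmt by -0.08 ± 0.06 (both SE), and neither passed. Tfam did pass once 0.3 g/l replicate 4 was left out (-0.26, limma adjusted p = 0.0352).

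No difference was detected in the mRNAs that mitochondrial ribosomes translate. Of 13 such genes 10 were measured, 0 were called by limma, 0 had an unadjusted p under 0.05 and 0 passed the exact rank-sum test. Their differences ran from 0.00 (ND3) to 0.04 (ND2, 0.04 ± 0.06, SE), with a median of 0.02. Their array means lay at 12.86 to 13.03 in 0.3 g/l and 12.94 to 13.04 in 4.5 g/l, near the top of the table's range (13.90). The ribosomal RNAs of mitochondria were not measured.

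Among 12 regulators of mitochondrial gene expression, 2 were lower and 0 higher. Myc, which drives ribosome production, fell from 8.49 ± 0.19 to 7.60 ± 0.11 (SD, n = 6; difference -0.89 ± 0.09, SE; limma adjusted p = 4.91e-05). Its groups were apart, at 8.13 to 8.70 and 7.49 to 7.75. Pprc1, a coactivator of the PGC-1 family, fell by 0.32 (limma adjusted p = 0.00131).

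Of the other factors whose motifs were searched, Nrf1 differed by -0.11 ± 0.06, Gabpa by -0.04 ± 0.08 and Yy1 by 0.06 ± 0.06 (all SE), and none of these 3 passed. Ppargc1b differed by 0.10 ± 0.07 and Ppargc1a by 0.00 ± 0.12 (both SE). Ppargc1a lay at a mean of 3.73 in both groups, below the bound of the dimmest 25% of genes.

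Mitochondrial chaperones and proteases, which fold and clear imported proteins, had a median of -0.44, with 8 of 11 lower, also without 0.3 g/l replicate 4. The list holds 1 gene of another kind, the transcription factor Atf5, and without it 7 of 10 were lower with a median of -0.51. Hspa9, the import chaperone, lay at 12.20 to 12.29 in 0.3 g/l without replicate 4, 11.26 in replicate 4 and 10.98 to 11.16 in 4.5 g/l. It fell by 1.01 ± 0.15 on the log2 scale (SE; limma adjusted p = 0.000730), and by 1.17 without replicate 4. Its partner Dnaja3 fell by 0.94 (1.13 on the log2 scale without replicate 4), the chaperonin Hspd1 by 0.74 and the protease Clpp by 0.59.

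Cytosolic ribosomal protein genes were counted in the same way: 14 of 58 were lower and 0 higher, also without 0.3 g/l replicate 4, with a median of -0.15 and negative differences in 57. Rpl32, Rps3 and Rplp1 fell by 0.42, 0.30 and 0.28 on the log2 scale, with groups apart. Rplp2, a stalk protein, fell by 0.51 with overlapping groups. Its probe set was dim, with means of 4.81 in 0.3 g/l and 4.30 in 4.5 g/l, near the 4.20 bound of the dimmest 25% of genes. The array means of the 58 genes were 9.21 to 9.32 in 0.3 g/l. In 4.5 g/l they were 8.97 to 9.00 on arrays 1 to 3 and 9.11 to 9.22 on arrays 4 to 6, a split that the mitochondrial members did not show.

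Nuclear genes of the respiratory chain and its assembly factors, taken by symbol, were lower in 8 of 88 (9.09%) and higher in 1, with a median of -0.03. That share is near the 8.52% of all genes. Without 0.3 g/l replicate 4, 12 were lower and 4 higher. The muscle isoform Cox6a2 fell by 2.05 on the log2 scale, the assembly factor Ndufaf4 by 0.41, Uqcrq of complex III by 0.48 and Ndufs8 of complex I by 0.25. The lists were compared by counts and medians only, and no test set one against another.

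**Figure D4:**
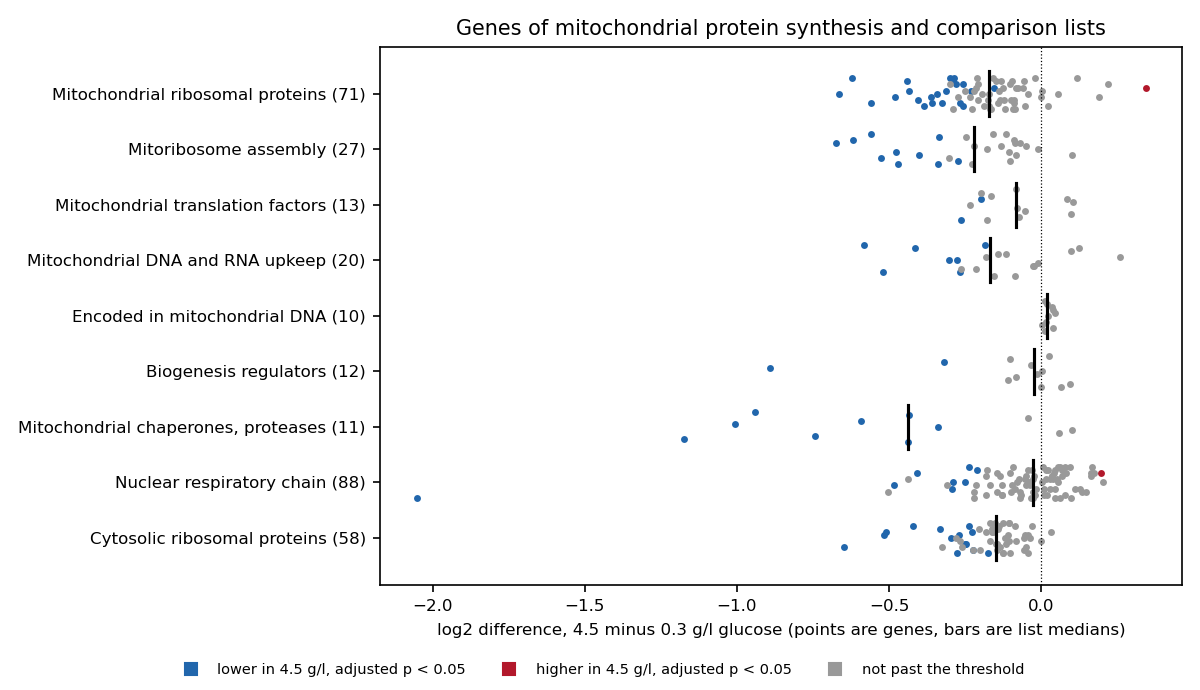
Log2 difference (4.5 minus 0.3 g/l glucose, x axis) of each gene in the mitochondrial ribosomal protein list and 8 comparison lists, with a bar at each list's median and the number of genes beside its name. Medians run from -0.44 for chaperones and proteases, Atf5 included, to 0.02 for genes encoded in mitochondrial DNA, with -0.17 for the mitochondrial ribosomal proteins.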

How the data were processed

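RNA of 12 samples was labelled for Affymetrix whole-transcript arrays, per the labels' protocols. The deposited values are log2 intensities from RMA in Affymetrix Expression Console, per the submitters' processing notes; the build behind the array was not given in the sources used here. Of 41345 probe sets, 23521 had 1 gene symbol in the platform annotation, 1814 had several and 16010 were unannotated. Only those with 1 symbol were used, as 22180 genes, of which 1082 had more than 1 probe set.

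Groups were compared with limma 3.58.1 in R 4.3.3 (lmFit and eBayes, two-sided, no covariate), with Benjamini-Hochberg adjustment over all genes, tested on simulated data first. No batch or scan time was given. Alternatives were moderation with a trend, a filter on dim genes, other normalizations and probe set rules, array weights, blocks, single arrays left out, replicate ranges, an exact rank-sum test and a test against a fold of 1.2. Deviations of arrays with the same replicate number correlated at -0.05 to 0.17, not all above 0.1, so numbers were not used as pairs.

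The members and lists were chosen with earlier results of these data known. Named genes were: members past the threshold (at most 25 by smallest p); the 3 largest rises and falls among the others; Mrpl12, Mrps12, Mrpl45, Mrpl58, Mrps6, Mrps18a, Mrps18b, Mrps18c and Mrps30; the highest and lowest member; members with an outlying array; the 4 changed genes of each pathway list with the smallest p; and Dap3, Tufm, Polrmt, Tfam, Lrpprc, Ppargc1a, Ppargc1b, Pprc1, Nrf1, Gabpa and Myc. Genes beside members, shared probe sets, markers, ND2, ND3, Gadd45gip1, Ptcd3, Mrpl11, Yy1 and Atf5 were named after their values were seen. Figures were drawn with matplotlib 3.10.9.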

Additional observations from a re-analysis of the deposited data

Results flagged for a closer look

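In 13 of the 142 groups of 6 arrays (71 members, each in both glucose levels), 1 array stood apart from the other 5 by a share of the group's range above the 95% critical value of Dixon's test. Chance alone marks about 1 group in 20. Of the 13, 7 were low values of 0.3 g/l replicate 4, the array that lay among the 4.5 g/l arrays on the first principal component: Mrpl2 at 7.21 (others 7.62 to 7.82), Mrpl24 at 8.96 (9.48 to 9.54), Mrpl38 at 8.33 (8.65 to 8.71), Mrpl55 at 7.90 (8.00 to 8.05), Mrps9 at 7.22 (7.59 to 7.75), Mrps18b at 8.07 (8.65 to 8.73) and Mrps27 at 6.39 (6.92 to 7.15). Mrpl14 was low in 0.3 g/l replicate 5, at 6.09 (others 6.38 to 6.49).

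In 4.5 g/l, replicate 3 was high for Mrpl49 at 8.43 (8.22 to 8.29) and Mrps7 at 8.29 (7.97 to 8.03), and low for Mrps31 at 6.83 (7.02 to 7.14). Replicate 4 was low for Mrpl50 at 8.14 (8.23 to 8.26), and replicate 6 was high for Mrpl57 at 7.36 (6.89 to 7.05). Mrpl24, Mrpl38, Mrps18b, Mrps27 and Mrps7 were lower, and Mrpl49 higher, by the limma test.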

How the results depend on the processing

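The 22 members called lower were 16 to 36 when single arrays were left out, where 5.87% to 13.6% of all genes were lower. The member called higher became 1 to 3, where 1202 to 2288 of 22180 genes were higher. The highest of all these values came without 0.3 g/l replicate 4. With array weights, which gave that array the least weight, 39 were lower and 3 higher (13.9% of all genes lower). The limma test against a fold of 1.2 called 2 lower and 0 higher (7 and 0 at an unadjusted p under 0.05). In replicates 4 to 6 alone limma called 0 members in each direction (18 lower and 1 higher at an unadjusted p under 0.05). Only 0.0406% of all genes were called lower there, and 61 of the 71 members' differences were negative. In the same replicates without 0.3 g/l replicate 4, 17 members were lower (8.94% of all genes) and 1 higher. Ppargc1a turned to -0.42 in that fit (limma adjusted p = 0.0455) from 0.00. Shares of all genes at an unadjusted p under 0.05 were not computed. The number called higher was 2 with trend and robust moderation, without the dimmest 25%, with quantile normalization, with cyclic loess, and with replicates 1 to 3 and 4 to 6 as a block. The exact rank-sum test called 15 lower (4.31% of all genes) and 1 higher. With the replicate block 18 were lower (7.71% of all genes) and 1 higher. The members' median stayed between -0.23 and -0.14 in all settings that give one. Over all genes, 1889 lower and 1555 higher became 1722 and 1745 with cyclic loess.

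Of the 23 called members, 16 passed in all 12 fits that left out an array, Mrps33 in 11, Mrpl17, Mrpl39 and Mrps2 in 6, Mrpl24 in 3, Mrpl47 in 2 and Mrpl10 in 1. With a gene's probe sets averaged, 19 members were lower (8.24% of all genes) and 1 higher. Mrpl12 was among those that did not pass (-0.20, limma adjusted p = 0.140). The causes were not tested.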
